A study of Mus musculus with 35 samples.

Results

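The genes described here are 10 targets and feedback regulators of the RAS-ERK pathway, Spry1, Spry2, Spry4, Spred1, Spred2, Dusp4, Dusp6, Etv4, Etv5 and Egr1, taken by symbol from a list of names. All 10 were among the 44853 genes of a GATA6 induction table, and 9 of them, all but Spry2, were among the 6275 genes of a smaller table from an Oct4 knockdown. The study followed mouse embryonic stem (ES) cells as the transcription factor GATA6 drove them towards primitive endoderm (PrE), the extraembryonic layer that goes on to line the yolk sac. Messenger RNA was sequenced from 35 libraries, of which 23 formed the induction series and 12 the siRNA series. The induction series held 3 libraries of untreated cells (0 h), 3 at each of 16, 24, 48, 72, 96 and 168 h in 1 µg/mL doxycycline (Dox), and 2 of untreated XEN cells, a stem cell line derived from the PrE of the embryo. In the siRNA series, 6 libraries had received a non-targeting control (siCTL) and 6 an Oct4 siRNA pool aimed at Pou5f1 transcripts (siOct4), all after 48 h in the same dose of Dox.

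The inducible cells were of the KH2 line (genotype C57BL/6 x 129/Sv), in which an added single-copy cassette makes GATA6 only when Dox is given, and all groups but XEN carry it, untreated cells included. They grew with serum and LIF on mitomycin-treated embryonic fibroblasts (feeders), most of which were removed by adsorption to plastic before lysis. The XEN cells were the wild-type X10 line on a CD1 background, grown without LIF, so strain, medium and line cannot be told apart from cell state in any comparison with them. The siRNA cells came from 1 clone, G6.3, whereas the labels do not say which clone gave the time course. Every value is a TPM, the number of transcripts of a gene per 1e6 transcripts, corrected for length, so levels can be set side by side between genes. Between libraries a TPM is a share of the total, and some calls, given below, changed when libraries were rescaled. Libraries labelled as replicates are described by the study as independent, and fewer cells of a type and less RNA per cell cannot be told apart in these bulk samples.

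FGF signals reach RAS and then the kinases RAF, MEK and ERK, and active ERK switches on transcription factors of the ETS family and immediate early genes. Among the genes it induces are the pathway's own brakes. Sprouty (Spry) and Spred proteins restrain signalling between the receptor and RAF, and dual-specificity phosphatases (Dusp) remove the activating phosphates from ERK. Because these transcripts follow ERK activity in many cells, they are often read as its record, and in the blastocyst FGF4 from the epiblast is the signal that steers neighbouring cells to PrE.

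The labels were first checked on defining markers. The summed level of 10 ES markers was 9631 to 9886 TPM at 0 h, 1934 to 2730 TPM at 168 h and 104 to 111 TPM in XEN cells, and the sum of 10 PrE markers went from 70.6 to 82.8 TPM at 0 h to between 17688 and 18356 TPM at 168 h. At 168 h 9 of the 10 ES markers were called lower, beside 16.5% of all genes tested. The other 1 was not called but was higher at an unadjusted p under 0.05 (limma). Pou5f1 in the knockdown ranged from 782 to 1194 TPM in siCTL and from 282 to 387 TPM in siOct4, with no overlap. The 10 fibroblast markers summed to 39.0 to 120.1 TPM at 0 h and 134 to 296 TPM at 168 h. At 168 h 6 of the 10 were called higher, beside 22.6% of all genes tested. None of the 10 was at 0 in every library of any group. The part of feeder cells in the 168 h values was not tested.

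The stretches before the RefSeq starts of 2 of the brakes, Dusp6 and Spred1, are shown because these genes fell with differentiation and carry there the letters that ETS factors prefer. They are from RefSeq (build GRCm38.p6), which held 7 windows for 6 of the genes, and each is the 250 bases before the RefSeq start, read in the direction of the gene. For Dusp6 GENCODE M21 has the same start, whereas for Spred1 its first transcript starts 303 bases further downstream. Capitals mark a core preferred by ETS proteins, CGGAAG, on either strand. In the window of Dusp6 they also mark the core of endoderm zinc finger proteins such as GATA6, which reads GATAA. On the printed strand the first shows as CTTCCG where it lies on the opposite strand. The second then shows as TTATC.
Dusp6, chr10:99262981-99263230, plus strand: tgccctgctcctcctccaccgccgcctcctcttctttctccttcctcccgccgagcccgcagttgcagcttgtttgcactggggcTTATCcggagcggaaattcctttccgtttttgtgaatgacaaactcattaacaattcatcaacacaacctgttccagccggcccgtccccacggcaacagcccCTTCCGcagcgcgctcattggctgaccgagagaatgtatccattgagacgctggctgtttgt
Spred1, chr2:117120821-117121070, plus strand: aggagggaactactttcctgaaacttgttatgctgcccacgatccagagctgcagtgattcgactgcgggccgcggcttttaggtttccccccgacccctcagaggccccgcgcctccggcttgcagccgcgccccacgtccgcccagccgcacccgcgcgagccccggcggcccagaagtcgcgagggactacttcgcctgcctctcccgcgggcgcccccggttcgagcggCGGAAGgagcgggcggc

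CGGAAG stood once in each of these windows and once in that of Spred2, and 13.6% of all 32851 RefSeq windows held it. The Spred2 window is not printed, since 1 GENCODE transcript of the gene starts inside it, 24 bases before the core. Of the windows of the 6 genes GATAA stood only in that of Dusp6, and 22.6% of all windows held it. A further ETS core, CCGGAA, found in 12% of all windows, and both other motifs were absent from the windows of Spry1, Spry2 and Etv5, the last of which had 2 starts. The ETS cores can overlap each other by 5 letters. These matches describe letters, not binding. Windows of Spry4, Dusp4, Etv4 and Egr1 were not used here.

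In ES cells before Dox the 10 genes differed widely in level. Etv4 was highest at 110.3 ± 16.5 TPM (SD, n = 3) and Etv5 next at 99.2 ± 3.93 TPM, and these neighbours overlapped. Below them came Egr1 (63.1 ± 45.3 TPM), Spry2 (46.9 ± 4.55 TPM) and Dusp6 (38.8 ± 4.52 TPM), each overlapping the next. Spred1, Spry4 and Spred2 lay together near 30 TPM, between 34.2 and 30.2 TPM on average. Dusp4 (11.1 ± 0.652 TPM) and Spry1 (7.54 ± 0.963 TPM) were the lowest, and each was clear of its neighbours. By 168 h the order had turned over: Egr1 was highest, followed by Spry2, Dusp4 and Spred2, while Etv5, Spry4, Etv4 and Spry1 were the 4 lowest. In XEN cells Spry2 (47.0 ± 2.20 TPM, n = 2) and Dusp4 (26.0 ± 0.461 TPM) stood above the other 8, and Spry1 was lowest at 0.329 ± 0.0502 TPM.

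Against 0 h, a gene was called when its log2 fold change of TPM + 1 exceeded 1 in size at an adjusted p under 0.05 (limma, Benjamini-Hochberg over 15057 genes tested). At 16 h 1 of the 10 was higher and 0 were lower, where 1.97% of all genes tested were higher and 0.804% lower. At an unadjusted p under 0.05 (limma), 3 of the 10 were higher and 3 lower. Counts at an unadjusted p, here and below, stand without the share of all genes at that rule. They therefore cannot show whether a set differs from all genes. At 24 h 1 was higher and 1 lower, beside 3.24% and 2.44% of all genes. At 48 h 1 was higher and 5 lower, beside 9.14% and 7.26%. At 72 h the counts were 1 and 6 beside 14.7% and 11.5%, and at 96 h 1 and 7 beside 15.4% and 14.1%. At 168 h 2 were higher and 6 lower, beside 22.6% and 16.5%. From 48 h on the share of the 10 that was lower was at least 3 times that of all genes, whereas the 1 or 2 genes that were higher were close to it or below it. The shares were not matched for level. All 10 averaged 7.54 TPM or more at 0 h, whereas a tested gene needed 1 TPM in any 1 group. A gene at 1 TPM or less at 0 h could not be called lower on this scale. The median log2 fold change of the 10 moved from -0.18 at 16 h to -0.96 at 48 h, -2.07 at 96 h and -1.83 at 168 h, while that of all genes tested lay between 0.00 and 0.09 at these times.

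**Figure D1:**
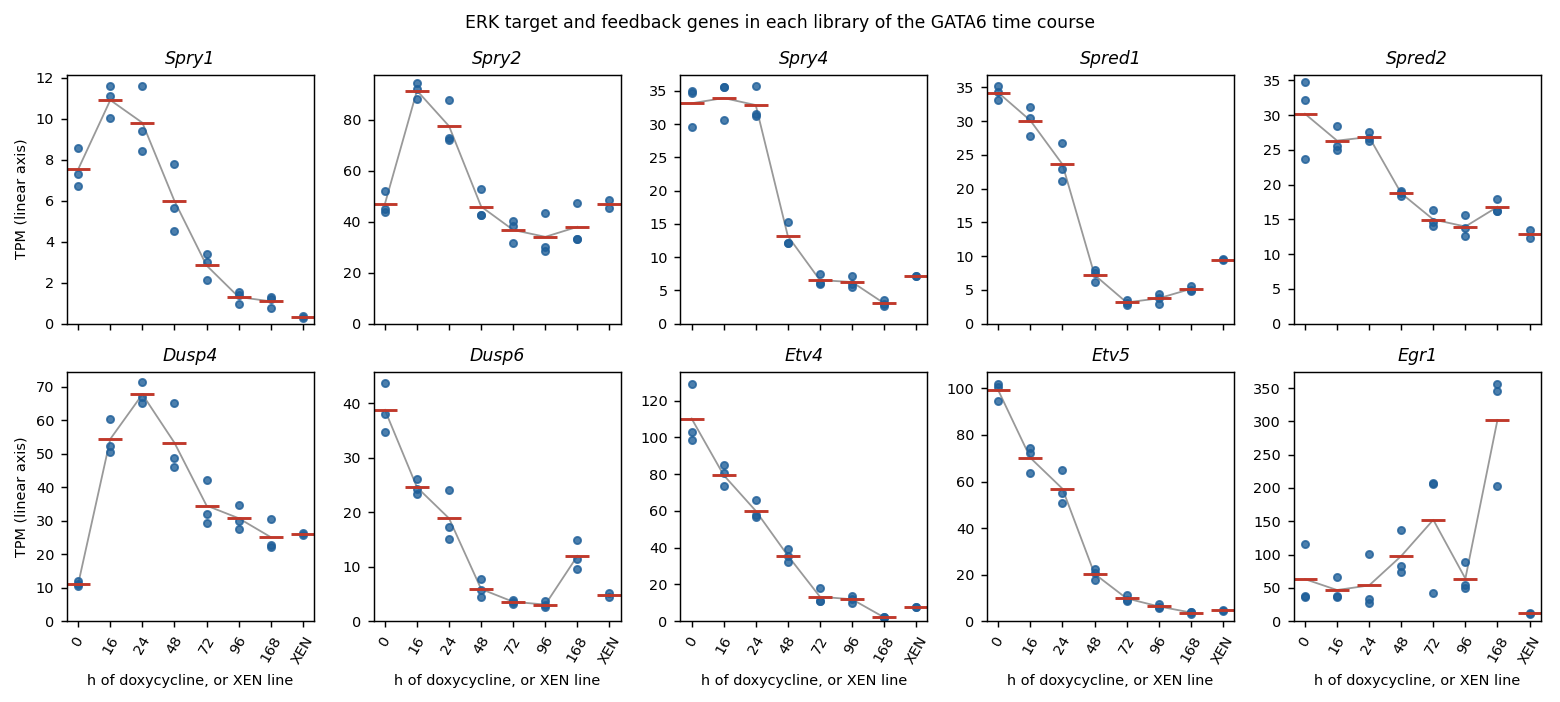
Level in TPM (vertical, linear axis from 0, scaled per gene) of each of the 10 genes against hours of doxycycline or in the XEN line. Dots are libraries (3 a time, 2 for XEN), red bars are means and the grey line joins the means of the time course. Dusp4 and Spry2 peak at 24 and 16 h, 7 genes fall, and the libraries of Egr1 lie far apart at most times.

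The ETS factors Etv4 and Etv5, which are switched on by FGF-ERK signalling and act as its effectors, showed the deepest loss. In the 3 libraries at 0 h Etv5 was at 100.8, 94.7 and 102 TPM. At 16 h its levels were 72.4, 74.4 and 63.8 TPM, by 48 h they were 20.9, 17.6 and 22.5 TPM, and the 168 h libraries had 3.999, 4.13 and 3.001 TPM. These 4 times did not overlap one another, but those of 16 and 24 h did (50.6 to 64.8 TPM at 24 h). The log2 fold change against 0 h was -0.50 ± 0.12 (SE) at 16 h, below the fold minimum although its adjusted p was 0.0107, then -2.24 ± 0.12 at 48 h and -4.42 ± 0.12 at 168 h (adjusted p = 2.53e-16, limma). In XEN cells Etv5 was at 4.78 and 4.41 TPM, 0.26 ± 0.14 above 168 h on the log2 scale, which was not called (adjusted p = 0.136, limma).

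Etv4 also fell from the start, with log2 fold changes of -0.46 ± 0.16 at 16 h, -0.86 ± 0.16 at 24 h and -1.60 ± 0.16 at 48 h. Before Dox its libraries were at 98.7, 103 and 129 TPM. After 16 h of Dox they had 80.4, 84.7 and 73.3 TPM, after 48 h 35.3, 32.2 and 39.5 TPM, after 72 h 11.0, 10.7 and 18.1 TPM, and after 168 h 2.22, 1.77 and 2.18 TPM. The libraries of 0, 16, 24 and 48 h formed separate steps, and those of 72 and 96 h overlapped. The log2 fold change was -5.18 ± 0.16 at 168 h (adjusted p = 7.00e-16, limma), the largest of the 10 genes at any time. XEN cells, at 7.70 and 7.82 TPM, lay above 168 h by 1.52 ± 0.17 (adjusted p = 9.25e-07, limma), whereas the same comparison of Etv5 was not called.

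Of the Sprouty genes, Spry4 kept its level for a day and then fell. Its 9 libraries at 0, 16 and 24 h lay between 29.6 and 35.8 TPM, and the log2 fold changes at 16 and 24 h were 0.03 ± 0.12 and -0.01 ± 0.12. At 48 h it was at 12.1, 12.1 and 15.2 TPM, and at 168 h at 2.65, 3.57 and 2.93 TPM. All later libraries were below all earlier ones, with log2 fold changes of -1.27 ± 0.12 at 48 h and -3.08 ± 0.12 at 168 h (adjusted p = 2.53e-14, limma). XEN cells, both at 7.10 TPM, were higher than 168 h by 1.01 ± 0.13 (adjusted p = 5.57e-06, limma), a call that missed the fold minimum without 168 h replicate 1 (0.93) or replicate 3 (0.99).

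Spry2 went up before it came down. The libraries at 0 h were at 43.6, 45.1 and 52.1 TPM, and those at 16 h at 91.8, 94.3 and 87.9 TPM. Every 16 h library was thus above every 0 h library, and the log2 fold change of 0.95 ± 0.15 had an adjusted p of 2.15e-04 (limma) but stayed just under the fold minimum of 1. Without 0 h replicate 3 it was 1.03 and was called. At 48 h Spry2 was back at 42.4, 42.6 and 52.6 TPM (log2 fold change -0.03 ± 0.15), and at 168 h and in XEN cells it also overlapped 0 h. It was the gene of the 10 that was called at no time.

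Spry1, the least abundant of the 3, had a smaller early excess. It was at 8.59, 6.70 and 7.33 TPM at 0 h and at 10.03, 11.1 and 11.6 TPM at 16 h, with no overlap between these groups, but its log2 fold change of 0.48 ± 0.17 had an adjusted p of 0.0757 (limma). From 48 to 96 h it went from 5.99 ± 1.64 to 1.298 ± 0.296 TPM (SD, n = 3). It was called lower at 72 h (-1.16 ± 0.17), 96 h and 168 h (-2.04 ± 0.17, adjusted p = 2.49e-09, limma). Its 2 XEN libraries, at 0.293 and 0.364 TPM, were the lowest of all, and the low level makes its log2 change on the TPM + 1 scale an understatement.

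Spred1 and Spred2, whose proteins bring the RAS inhibitor neurofibromin to the membrane, behaved unequally. For Spred1 the 0 h libraries had 35.3, 34.3 and 33.1 TPM, those of 24 h had 22.9, 21.0 and 26.8 TPM, those of 48 h had 7.50, 6.19 and 7.93 TPM and those of 72 h had 2.73, 3.12 and 3.55 TPM. Its libraries at these times did not overlap. After the low of 72 h, at -3.10 ± 0.12 against 0 h (adjusted p = 7.52e-14, limma), it was at 5.13 ± 0.426 TPM at 168 h (SD, n = 3) and 9.47 ± 0.118 TPM in XEN cells (n = 2). The XEN level was 0.77 ± 0.14 above 168 h on the log2 scale, under the fold minimum at an adjusted p of 1.08e-04 (limma).

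Spred2 changed least among the genes that fell. It was at 34.7, 32.2 and 23.7 TPM at 0 h and at 12.6, 13.7 and 15.6 TPM at 96 h, and these groups were apart. The log2 fold change was -0.95 ± 0.11 at 72 h, -1.05 ± 0.11 at 96 h and -0.79 ± 0.11 at 168 h, so that only 96 h passed the fold minimum, with all 3 adjusted p under 0.05 (limma). The call at 96 h was lost without 0 h replicate 1 (-0.94), 0 h replicate 2 (-0.99) or 96 h replicate 1 (-0.98), and 72 h was called without 0 h replicate 3 (-1.11) or 72 h replicate 2 (-1.01).

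The phosphatase genes Dusp4 and Dusp6 moved in opposite directions. Dusp4, which encodes a nuclear phosphatase of ERK and related kinases, had 11.9, 11.0 and 10.6 TPM before Dox. By 16 h its libraries had reached 52.4, 50.6 and 60.3 TPM, and by 24 h 66.9, 65.1 and 71.4 TPM. All libraries at every later time were above all libraries at 0 h. The log2 fold change was 2.19 ± 0.14 at 16 h (adjusted p = 1.61e-09, limma), 2.50 ± 0.14 at 24 h and 1.09 ± 0.14 at 168 h. These correspond to mean TPM 4.88 times, 6.08 times and 2.25 times that at 0 h. The decline after 24 h was gradual, to 48.8, 46.0 and 65.1 TPM by 48 h, then 27.7, 29.9 and 34.7 TPM by 96 h and finally 22.8, 30.5 and 22.0 TPM by 168 h. XEN cells, at 26.3 and 25.6 TPM, lay within the 168 h range (0.06 ± 0.16) and above 0 h by 1.15 ± 0.16 (adjusted p = 2.56e-06, limma). Without 168 h replicate 2 the change at 168 h was 0.95 and no longer called. Dusp4 was the gene of the 10 called higher at every time.

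Dusp6, which encodes a cytoplasmic phosphatase selective for ERK, started at 37.9, 34.7 and 43.7 TPM. The 24 h libraries had 17.3, 15.1 and 24.1 TPM, those of 48 h had 5.64, 4.38 and 7.65 TPM and those of 96 h had 2.51, 2.90 and 3.72 TPM. Each of these groups was below the one before. The log2 fold change reached -3.30 ± 0.18 at 96 h (adjusted p = 7.73e-12, limma). From 96 to 168 h it then rose, to 11.5, 14.9 and 9.52 TPM, by 1.67 ± 0.18 (adjusted p = 9.10e-07, limma), and no library overlapped. XEN cells, at 5.24 and 4.46 TPM, were lower than 168 h by -1.13 ± 0.21 (adjusted p = 1.57e-04, limma), and this call was lost without 168 h replicate 2 (-0.97). At 24 h Dusp6 was called lower at -1.02 ± 0.18, and without 0 h replicate 3 or 24 h replicate 1 or 2 it was between -0.98 and -0.88 and not called.

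**Figure D2:**
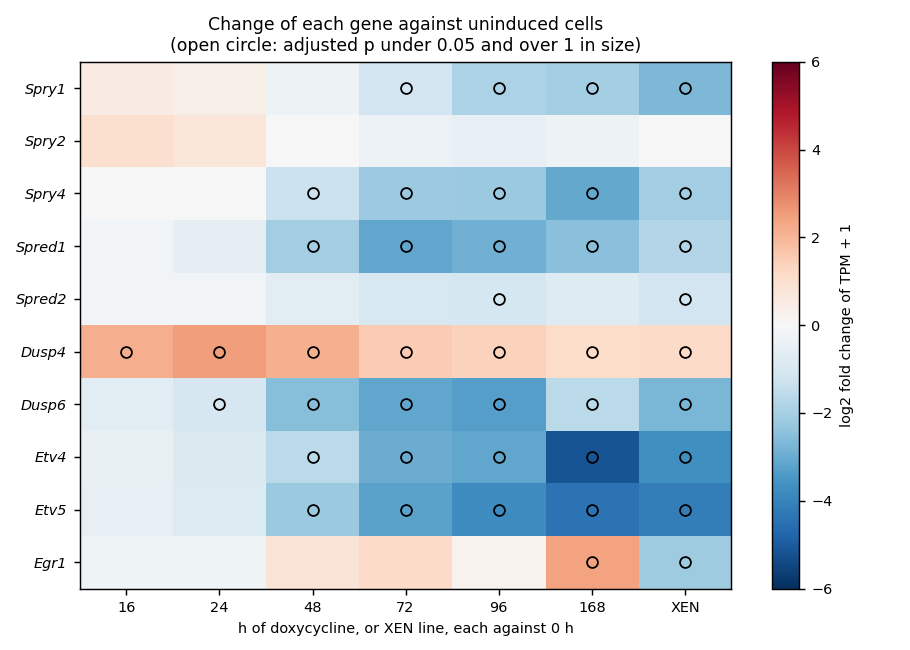
Log2 fold change of TPM + 1 (colour, from -6 in blue to 6 in red) of each gene (rows) against 0 h at each time and in XEN cells (columns). Open circles mark changes over 1 in size with an adjusted p under 0.05 (limma). Dusp4 is red throughout, the values of Etv4 and Etv5 at 168 h, -5.18 and -4.42, are the darkest blue, and Egr1 is red at 168 h but blue in XEN cells.

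Egr1, an immediate early gene that encodes a zinc finger transcription factor, followed none of these courses. The libraries had 36.1, 37.7 and 115 TPM before Dox, 33.9, 26.5 and 100.5 TPM after 24 h, and 74.4, 82.7 and 136 TPM after 48 h. Later they had 207, 206 and 42.7 TPM (72 h), 49.1, 54.5 and 88.1 TPM (96 h), and 346, 357 and 203 TPM (168 h). In each of these groups the first 2 libraries were close together and the third lay apart, above them up to 48 h and at 96 h and below them at 72 and 168 h. Only the 168 h libraries were all above the 0 h libraries, with a log2 fold change of 2.42 ± 0.59 (adjusted p = 0.00118, limma). In XEN cells, at 11.4 and 11.8 TPM, Egr1 was below 0 h by -2.13 ± 0.65 (adjusted p = 0.00748, limma) and below 168 h by -4.55 ± 0.65 (adjusted p = 1.91e-05, limma).

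Which times of Egr1 were called depended on the libraries kept. Without replicate 3 of every time, the log2 fold change was 1.07 at 48 h and 2.46 at 72 h, both called, where with all libraries it was 0.79 ± 0.59 and 1.17 ± 0.59 and not called. Without replicate 1 of every time the change at 168 h was 2.01 and its adjusted p 0.0561 (limma). Against 0 h, XEN cells also fell short without replicate 1 (-2.39, adjusted p = 0.0698, limma) or replicate 2 (-2.41, adjusted p = 0.0540, limma) of every group, where the 1 XEN library left is assumed to vary like the other groups.

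Some other immediate early genes, which ERK and stress kinases both induce, had a library pattern like that of Egr1. Fos, the gene whose pattern was most like that of Egr1 (Pearson r = 0.953 over 23 libraries), had 44.7, 43.1 and 61.0 TPM before Dox, 224, 207 and 63.2 TPM after 72 h, and 334, 352 and 226 TPM after 168 h. Jun had 104, 104 and 30.9 TPM after 72 h and 319, 366 and 247 TPM after 168 h. Ier2, chosen after its values were seen, was at 116, 117 and 44.5 TPM at 72 h. In these 3 genes, as in Egr1, the third library at 72 h was the lowest of its group by far. A list of 10 immediate early and stress genes, without Egr1, had been drawn up for the stress of dissociating cells. The inducible cells were trypsinised before lysis. Of this list, the third library was the lowest at 72 h for 7 and the highest for 2, Hspa1a and Hspa1b, which encode stress-induced chaperones. At 168 h the third library was the lowest for 4 of the 10 and the highest for 4, and at 0 h it was the highest for 9. That library also had the lowest correlations with its fellows over all genes of any time (r = 0.987 and 0.988). Of the same 10, 9 were called higher at 168 h, beside 22.6% of all genes tested, among them Atf3 (5.17 ± 0.16 on the log2 scale), Jun (4.72 ± 0.36) and Btg2 (3.50 ± 0.17). The summed level of the 10 was 270 to 359 TPM before Dox, 391 to 900 TPM after 72 h, 1380 to 1688 TPM after 168 h and 457 to 465 TPM in XEN cells. The part of this group-wide change, or of the handling of the cells, in the Egr1 values was not tested.

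**Figure D3:**
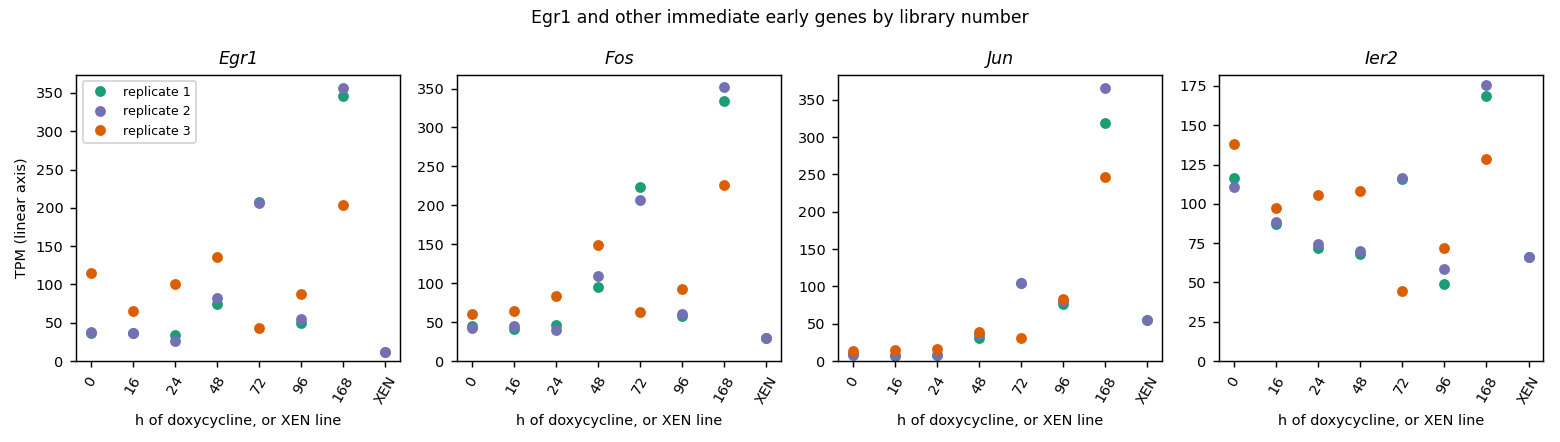
Level in TPM (vertical, linear axis from 0, scaled per gene) of Egr1, Fos, Jun and Ier2 against hours of doxycycline or in the XEN line, 1 dot a library, coloured by replicate number. At 72 h replicate 3 (orange) lies below the other libraries in all 4 panels, at 42.7 TPM against 206 and 207 TPM for Egr1, and at 168 h it is again the lowest.

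Successive times were compared in the same way. From 16 to 24 h 0 of the 10 were called in either direction, beside 0.232% of all genes higher and 0.12% lower, and 5 had an unadjusted p under 0.05 (limma), 4 of them lower. From 24 to 48 h 4 were lower and 0 higher, beside 2.44% and 3.12% of all genes: Spry4 (-1.26 ± 0.12), Spred1 (-1.58 ± 0.12), Dusp6 (-1.53 ± 0.18) and Etv5 (-1.44 ± 0.12). None of the 10 was higher at an unadjusted p under 0.05 in that step, and 9 were lower, with no share of all genes at that rule to set beside them. From 48 to 72 h 1 was lower and 0 higher, beside 1.38% and 1.95%. That gene was Etv4 (-1.39 ± 0.16), and Spred1 (-0.99 ± 0.12), Etv5 (-0.99 ± 0.12) and Spry4 (-0.91 ± 0.12) were near the fold minimum. From 72 to 96 h 0 were called, beside 0.671% higher and 1.04% lower, with 2 at an unadjusted p under 0.05, both lower. From 96 to 168 h 2 were higher and 1 lower, beside 5.23% and 2.44%, namely Dusp6, Egr1 (2.23 ± 0.59) and, lower, Etv4 (-2.07 ± 0.16).

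In XEN cells 1 of the 10 was higher than at 0 h and 8 were lower, beside 18.9% and 18.7% of all genes tested, and the median log2 fold change of the 10 was -2.10. The single gene not called was Spry2, at 0.01 ± 0.17. Against 168 h 2 were higher in XEN cells (Spry4 and Etv4) and 2 lower (Dusp6 and Egr1), beside 4.73% and 9.17%. These comparisons share their XEN libraries, and those against 0 h share the 0 h libraries. Of the 6 not called, Spry2, Dusp4 and Etv5 had an adjusted p over 0.05, and Spry1, Spred1 and Spred2 fell under the fold minimum alone. With a pseudocount of 0.1 TPM in place of 1, Spry1 was called lower in XEN cells than at 168 h (-1.44, adjusted p = 1.64e-04, limma).

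Over the 23 libraries the 7 genes that were lower at 96 h correlated with one another, with a Pearson r of log2(TPM + 1) from 0.621 to 0.972 and a median of 0.882 over their 21 pairs. The 7 were picked by their fall in these same libraries. Spry2, not among them, correlated with the 7 at 0.624 (Dusp6) to 0.770 (Spry4), within their own range. Pairs with Dusp4 ranged from -0.17 to 0.50 and pairs with Egr1 from -0.44 to -0.05. The points share the time course, so these values describe a common trend and carry no p. Genes most like each member, among 9357 that spanned at least 1 on the log2 scale, were Gins1, Pisd and Chrna9 for Etv5 (r = 0.994, 0.993 and 0.993), Pold2, Dnph1 and Ruvbl1 for Etv4 (0.985, 0.985 and 0.984), and Abcc4, Gtpbp4 and Hmgb2 for Spry4 (0.988, 0.988 and 0.987). They were Uri1, Piwil2 and Alpl for Spry1 (0.983, 0.982 and 0.980), Sms, Rpp25 and Tle4 for Spred1 (0.986, 0.984 and 0.979), Jam2, Sox11 and Klhl8 for Spred2 (0.963, 0.962 and 0.960) and Gcnt2, Maco1 and Mgat3 for Dusp6 (0.978, 0.948 and 0.947). For the genes with an early peak the likeness was lower, with D230025D16Rik, Ppm1k and Fut2 for Spry2 (0.938, 0.906 and 0.904) and Nuak1, Rnd3 and Stbd1 for Dusp4 (0.936, 0.904 and 0.897). After Fos, Egr1 was most like Abcc10 and Trim68 (0.884 and 0.878).

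Upstream of these genes, the FGF ligands and receptors changed from the first time measured. Of 13 listed, 12 were tested, and at 16 h 4 were called higher and 3 lower, beside 1.97% and 0.804% of all genes tested. Fgf4, the ligand made by pluripotent cells, went from 85.1 ± 9.96 TPM at 0 h to 31.6 ± 2.07 TPM at 16 h (log2 fold change -1.40 ± 0.22) and 0.582 ± 0.188 TPM at 168 h, and it was listed at 0 in both XEN libraries. Fgf17 (-1.44 ± 0.17) and Fgf15 (-1.13 ± 0.17) were also lower at 16 h. Fgf10 (from 1.06 ± 0.691 to 20.2 ± 0.534 TPM) and Fgf3 (from 1.47 ± 0.379 to 21.7 ± 2.09 TPM) were higher. Of the receptors, Fgfr2 went from 15.9 ± 6.15 to 54.5 ± 9.52 TPM at 16 h, was at 77.9 ± 5.01 TPM at 24 h and back at 11.9 ± 1.62 TPM at 168 h, and Fgfr3 went from 0.843 ± 0.0103 to 5.93 ± 0.437 TPM at 16 h. Klb, which encodes the co-receptor beta-Klotho, was at 47.6 ± 2.35 TPM at 168 h against 0.0203 ± 0.0203 TPM at 0 h.

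For the kinases and adaptors between receptor and ERK the counts were near or below those of all genes. Of 20 genes of the RAS-ERK cascade, 0 were called at 16 and 24 h, where 1.97% and 3.24% of all genes were called higher and 0.804% and 2.44% lower. At each of these times 8 had an unadjusted p under 0.05 (limma), with no share of all genes at that rule beside them. At 168 h 4 were higher and 1 lower, beside 22.6% and 16.5%, led by Frs2 (2.68 ± 0.19), an FGF receptor adaptor, Sos2 (1.75 ± 0.13), a RAS exchange factor, and Ptpn11 (1.31 ± 0.06), the phosphatase SHP2.

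Of 13 other feedback genes tested, 1 was called at 48 h, which was higher, beside 9.14% of all genes higher and 7.26% lower. At 168 h 4 of them were higher and 1 lower, beside 22.6% and 16.5%. Dusp9, another ERK phosphatase, had 32.1 ± 5.62 TPM before Dox, 74.9 ± 1.94 TPM after 16 h, 223 ± 24.5 TPM after 168 h and 407 ± 0.331 TPM in XEN cells, and it was higher at 168 h by 2.77 ± 0.17. Errfi1 (1.92 ± 0.13) and Lrig3 (1.83 ± 0.13), inhibitors of receptor tyrosine kinases, were higher at 168 h as well. Of 18 further ERK targets, 1 was higher at 16 h, Phlda1 (from 9.49 ± 4.41 to 38.7 ± 2.40 TPM), beside 1.97% of all genes, and 9 were higher and 3 lower at 168 h, beside 22.6% and 16.5%. Those with the largest changes were Jun (given above), Myc (from 29.9 ± 4.33 to 1.84 ± 0.381 TPM) and Fosl2 (from 1.77 ± 0.330 to 28.8 ± 4.85 TPM). These calls were by limma at an adjusted p under 0.05, and 4 genes of this list, Fos, Fosb, Jun and Junb, as well as Ier2, also stand in the immediate early and stress list.

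In the Oct4 knockdown the call needed a log2 difference over 0.5, and 6264 genes were tested. These came from a set that its submitters named as GATA6-responsive, whose values summed to 274527 to 355895 TPM a library. Shares, medians and rescaling factors over all genes of this series therefore refer to that selected set, not to the whole transcriptome. Without regard to the replicate numbers, 0 of the 9 genes listed were called in either direction, beside 0.942% of all genes higher and 1.72% lower, and 2 had an unadjusted p under 0.05 (limma), both lower. Same-numbered siCTL and siOct4 libraries deviated together, though some of neighbouring number did so as much (siCTL 2 with siOct4 1, r = 0.339). Once the number entered the fit as a block, 4 of the 9 were lower and 0 higher, beside 6.15% and 2.43% of all genes. All 9 had a difference below 0, with a median of -0.57, where the median of all genes was -0.12. The share of all genes below 0 does not stand beside that count. Spry1 (-0.04) and Spred1 (-0.02) lay near 0 and were above it after median-of-ratios rescaling (0.077 and 0.12).

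The 4 genes called with the block were Etv4, Dusp4, Spry4 and Egr1. Etv4 was lowest at 7.12, median 19.4 and highest at 29.4 TPM in siCTL, and at 3.92, 12.4 and 15.1 TPM in siOct4. The ranges overlapped, but siOct4 was below siCTL in 6 of 6 pairs, by a mean of -0.86 ± 0.16 on the log2 scale (SE, adjusted p = 0.00772 with the block and 0.280 without, limma). Dusp4 was at 6.61, 21.9 and 43.2 TPM in siCTL and at 4.88, 13.4 and 20.4 TPM in siOct4, likewise lower in 6 of 6 pairs, by -0.87 ± 0.18 (adjusted p = 0.0103 with the block and 0.374 without, limma). These 2 genes kept their call with the block when any 1 replicate number was left out, but Etv4 lost it when consecutive libraries were averaged.

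Spry4 was at 1.47, 5.58 and 11.6 TPM in siCTL and at 1.34, 2.78 and 6.38 TPM in siOct4, lower in 6 of 6 pairs by -0.68 ± 0.18 (adjusted p = 0.0339 with the block and 0.472 without, limma). Egr1 was at 4.20, 44.1 and 99.5 TPM in siCTL and at 5.05, 10.5 and 23 TPM in siOct4, lower in 5 of 6 pairs by -1.37 ± 0.33 (adjusted p = 0.0276 with the block and 0.347 without, limma). With the block, Spry4 kept its call only when replicate 3 was left out, and Egr1 only when replicate 3 or replicate 4 was. The number of the 9 called with the block was between 2 and 4 over the 6 replicates left out in turn, with no share of all genes beside it.

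Etv5 was at 1.63, 7.55 and 19.4 TPM in siCTL and at 1.47, 4.31 and 14.1 TPM in siOct4, below in 6 of 6 pairs, and was not called (-0.57 ± 0.18 and adjusted p = 0.0746 with the block, limma). The other 4 were Spred2 (-0.38 ± 0.18, below in 5 of 6 pairs), Dusp6 (-0.27 ± 0.24, 4 of 6), Spry1 (-0.04 ± 0.17, 4 of 6) and Spred1 (-0.02 ± 0.19, 3 of 6), with the SE from the fit with the block. An exact two-sided permutation test gave p = 0.0584 for Etv4, 0.0909 for Egr1, 0.0952 for Dusp4 and 0.143 for Spry4 (adjusted over the 9 genes by Benjamini-Hochberg 0.286, 0.286, 0.286 and 0.321). The paired exact sign-flip test gave p = 0.0312 for Spry4, Dusp4, Etv4 and Etv5 alike, the smallest that 6 pairs allow, and 0.0703 after the same adjustment.

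Some siRNA libraries of 1 group were closely alike. Over all genes siCTL replicates 1 and 2 correlated at r = 0.990, as did siCTL replicates 5 and 6, with siOct4 5 and 6 at 0.989 and siOct4 3 and 4 at 0.985, where pairs other than 1 with 2, 3 with 4 and 5 with 6 lay between 0.929 and 0.969. With such consecutive libraries averaged to 3 against 3 and the block kept, Dusp4 was called (-0.93, adjusted p = 0.0484, limma), whereas Etv4 (-0.89, adjusted p = 0.0658), Spry4 (-0.71, adjusted p = 0.149) and Egr1 (-1.40, adjusted p = 0.149) were not. The counts of 6 pairs and the sign-flip tests above take all 6 as separate, as the study describes them, and whether consecutive libraries share a culture was not tested.

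The siRNA libraries differed among themselves in ways that touched all 9 genes. Their mean log2(TPM + 1) over the 9 was 1.82 in siCTL replicate 3 and 1.95 in siOct4 replicate 3, against 4.42 and 4.22 in siCTL replicates 5 and 6. Median-of-ratios factors over the table ran from 0.671 to 1.34, and 0.706 in siCTL replicate 3. After rescaling by them, with the block, 3 of the 9 were called, with no share of all genes beside them: Etv4 (-0.72), Dusp4 (-0.73) and Spry4 (-0.57). The difference of Egr1 was then -1.22. The part of these library differences in the results was not tested beyond that rescaling.

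Dusp9 moved the other way in the same libraries. It was the 1 gene of the 7 other feedback genes tested that was called, with a mean of 97.4 ± 45.9 TPM under the control and of 224 ± 65.3 TPM under siOct4 (SD, n = 6). Its log2 difference was 1.25 ± 0.28 (adjusted p = 0.0274, limma), and it was chosen for naming here after that value was seen. Spry2 was not listed in this table and has no siRNA value here.

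**Figure D4:**
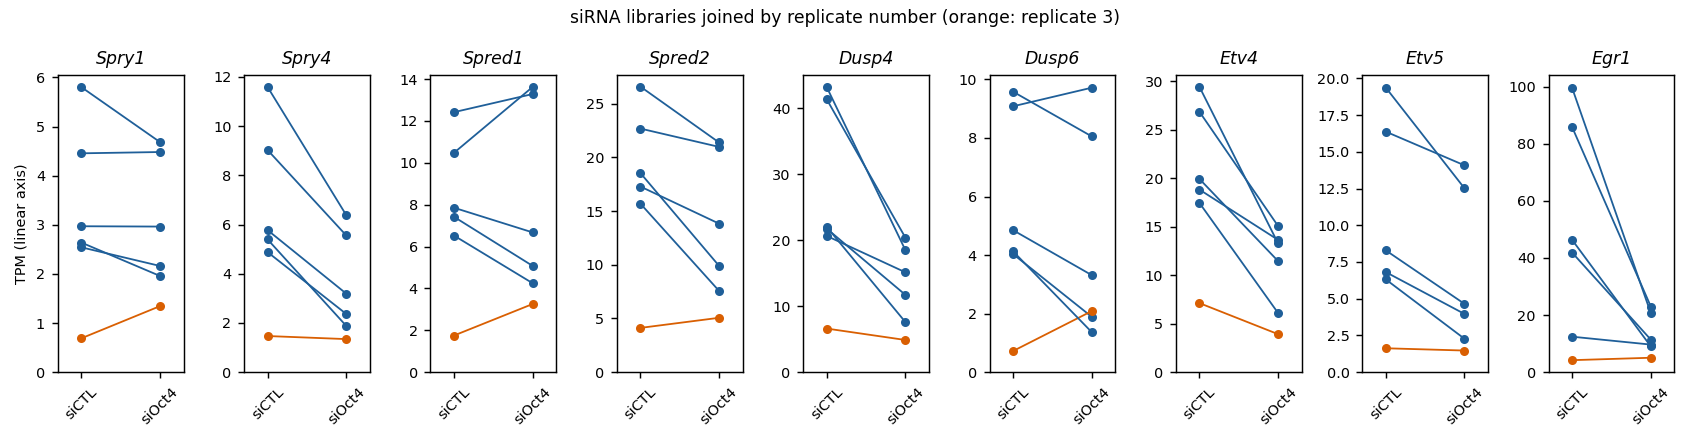
Level in TPM (vertical, linear axis from 0, scaled per gene) of the 9 listed genes in siCTL and siOct4 libraries, with lines joining the same replicate number and replicate 3 in orange. Lines of Spry4, Dusp4, Etv4 and Etv5 go down in 6 of 6 pairs, whereas those of Spred1 go down in 3, and replicate 3 of siCTL is the lowest point in each of the 9 siCTL columns.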

How the data were processed

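Stranded poly(A) RNA-seq libraries were used. The authors aligned reads with STAR to mm10 and quantified genes with RSEM, and the deposited values are TPM, 1 column a library, with no counts. The induction columns each summed to 1e6. Values under 1 TPM lay on steps of about 0.0101 TPM, the rounding of the estimates, so depth is unknown and no counting interval is given. The siRNA table held 6275 genes, named by its submitters as GATA6-responsive, and its columns summed to 274527 to 355895 TPM. The submitters' processing notes also name cutadapt and bcl2fastq, and the study's outlier libraries had been removed by its authors.

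Genes that averaged 1 TPM or more in some group were tested on log2(TPM + 1) with limma 3.58.1 (trend and robust options, R 4.3.3) and Benjamini-Hochberg adjustment over all genes tested, in 1 fit over 23 libraries for the induction and 1 over 12 for the siRNA. A fold change on this scale understates the change of low genes. Calls took an adjusted p under 0.05 and a log2 change over 1 (induction) or 0.5 (siRNA). The 2 tables were analysed separately. Single siRNA values were compared by exact permutation tests. The fit was tested on simulated data.

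Whether replicate numbers pair libraries was checked on deviations from group means. Same-numbered siRNA libraries correlated at 0.236 or more in all 6 pairs (mean 0.328), and the numbers were taken as pairs on these values. The study used a paired test for endogenous Gata6 over 6 independent knockdowns at day 2, but does not say which libraries pair. Those of unlike number ranged from -0.556 to 0.459 (mean -0.064), and some neighbours matched better than the same number. For instance, siCTL 2 was at 0.339 with siOct4 1 and at 0.242 with siOct4 2, and siCTL 5 at 0.313 with siOct4 6 and at 0.271 with siOct4 5. Whether libraries pair by number or by sets of consecutive numbers was not tested. Gene positions follow GENCODE M21. Named were the 10 genes, the 3 genes most correlated with each, and, from the pathway lists, genes called at 16 h and the 3 largest changes at 168 h among genes reaching 5 TPM. The 10 genes and all lists were chosen with earlier results of these data known. Alternatives tried were another pseudocount, filter, threshold, scaling, a gene length correction, the replicate block and leaving out libraries.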

Additional observations from a re-analysis of the deposited data

Results flagged for a closer look

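In siCTL replicate 3, Spred1 was at 1.46 and Spred2 at 2.36 on the log2(TPM + 1) scale, each far below the other 5 siCTL libraries, which lay between 2.91 and 3.75 for Spred1 and between 4.06 and 4.79 for Spred2. Both lay outside by Dixon's test of the gap to the nearest library. Of 18 sets of 6 libraries screened (9 genes in siCTL and siOct4), 0.9 would be so marked by chance. Their part in the siRNA comparison was not tested beyond leaving out replicate 3, which gave a Spred1 difference of -0.15 in place of -0.02. For Spred2, below in 5 of 6 pairs, replicate 3 was the pair that went the other way (0.24), so its mean difference of -0.38 is drawn towards 0 by that pair.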

How the results depend on the processing

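Depth is unknown, so no limit from counting can be given, and 2 XEN libraries of another strain limit that comparison. The counts in this paragraph stand without the share of all genes at the same setting. They show how far the calls depend on the setting, not whether the set differs from all genes. With no fold minimum the genes called numbered 4 at 16 h, 6 at 24 h, 7 for XEN cells against 168 h, 8 from 24 to 48 h, 8 from 48 to 72 h, 2 from 72 to 96 h and 6 from 96 to 168 h. With a pseudocount of 0.1 TPM 4 were called from 48 to 72 h and 1 from 72 to 96 h, and with median-of-ratios rescaling 3 from 48 to 72 h. Leaving out libraries gave 1 to 2 genes at 16 h (2 without 0 h replicate 3), 1 to 2 at 24 h (1 without 0 h replicate 3 or 24 h replicate 1 or 2), 1 to 4 from 48 to 72 h (4 without 48 h replicate 2) and 0 to 1 from 72 to 96 h (1 without 72 h replicate 3). Beyond Etv4, the genes called from 48 to 72 h were Spred1 (-1.18), Etv5 (-1.05) and Spry1 (-1.04) with that pseudocount, Etv5 (-1.03) and Spred1 (-1.02) with rescaling and Etv5, Spred1 and Spry1 (-1.08, -1.08 and -1.01) without 48 h replicate 2. From 72 to 96 h they were Spry1 (-1.07) with that pseudocount and Egr1 (-1.73) without 72 h replicate 3. Without replicate 3 of every time, Egr1 was called higher from 24 to 48 h (1.36) and from 48 to 72 h (1.39), and lower from 72 to 96 h (-1.98). It was also called higher from 24 to 48 h without 24 h replicate 3 alone (1.62). From 96 to 168 h Egr1 lost its call without replicate 1 (1.94) or 2 (1.99) of every time. The cause of these moves was not tested.

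The replicate block left the number of genes called in each induction comparison as it was (8 at 168 h). There, same-numbered libraries correlated at a mean of 0.033 (from -0.186 to 0.219), and over 0.1 in all 3 pairs between 0 and 72 h alone (0.115 to 0.193), where the block changed no call. In the knockdown 4 genes were called with the replicate block, 4 with the block and a gene length correction, 3 with the block and rescaling, 1 with the block and consecutive libraries averaged, and 0 to 4 over replicates left out with or without the block. These combined settings, the averaging and the length correction were chosen after seeing the data. Apart from the knockdown with the block alone, the counts at these other settings also stand without the share of all genes.

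Changes of sign were confined to differences near 0 that were not called. Spry2 in XEN cells against 0 h was -0.0083 with rescaling and -0.066 to 0.083 over replicates left out. Dusp4 in XEN cells against 168 h was -0.022 to 0.22, Egr1 at 16 h -0.42 to 0.0051 and Spry4 at 24 h -0.15 to 0.059. In the knockdown, with or without the block, Spry1 was 0.077 with rescaling, 0.069 with the length correction and -0.14 to 0.011 over replicates left out, and Spred1 was 0.12, 0.14 and -0.15 to 0.078. With rescaling Dusp4 at 168 h was 0.91 and Dusp6 in XEN cells against 168 h -0.98, both no longer called.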
